A study of Mus musculus with 8 samples.

Results

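The Nkx genes encode homeobox transcription factors of the NK class, and 9 of them (Nkx2-2, Nkx2-3, Nkx2-4, Nkx2-5, Nkx2-6, Nkx3-2, Nkx6-1, Nkx6-2 and Nkx6-3) were examined in maps of H3K9 methylation from mouse embryonic fibroblasts (MEFs). They were taken by name from the GENCODE annotation, which held 55413 genes on the main chromosomes, 21938 of them protein-coding. Chromatin immunoprecipitation with antibodies against H3K9me1, H3K9me2 or H3K9me3 was followed by sequencing, and fragmented input DNA was sequenced as well. The 8 samples formed 4 groups of 2 replicates, and all came from wild-type MEFs. According to the study's methods these are E1c cells, which carry a conditional allele of the H3K9 methyltransferase gene Eset1 that tamoxifen can delete and that was left intact in these samples. The line is a single clone, and the study's methods call the 2 samples of each group biological replicates. No mutant, treatment or time course was part of these samples.

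Each mark was deposited as 1 list of enriched regions, with no values per replicate, and no list of the input was analysed here. A list gave chromosome, start and end of a region and no height, score or p-value, so a value here says whether and over what length a mark was called, not how strongly. No SD and no n could be given, no statistical test was made, and sequencing depth could not be read from the lists. The lists hold no expression values, so the fibroblast identity of the cells was not checked against marker genes. Coverage was uneven between chromosomes. Over the 7 chromosomes that hold an Nkx gene, H3K9me1 covered 0.254% to 35.5% of the sequence, H3K9me2 0.539% to 33.9% and H3K9me3 2.22% to 37.7%, lowest on chromosome 7 and highest on chromosome 8 for each mark.

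NK homeodomain proteins bind DNA through their homeodomain and specify organs and neural cell types in the embryo. Nkx2-2, Nkx6-1 and Nkx6-2 pattern the ventral neural tube, and the former 2 also act in the insulin-producing beta cells of the pancreas. Nkx2-5 is a regulator of heart development, Nkx3-2 (also known as Bapx1) of the axial skeleton, and Nkx2-3 of the spleen and gut. H3K9me2 and H3K9me3 are known as marks of silenced chromatin, while H3K9me1 also occurs at active genes.

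H3K9me3 lay at the start sites of 4 of the 9 Nkx genes, namely Nkx2-3, Nkx2-4, Nkx3-2 and Nkx6-1, and in each of these it was the sole mark. H3K9me1 lay at the start sites of 3 genes (Nkx2-5, Nkx2-6 and Nkx6-3), and H3K9me2 at those of Nkx2-6 only. Nkx2-2 and Nkx6-2 had no mark there. A start site was scored as met by a mark when a region overlapped a window of 1 kb either side of any annotated start by at least 1 bp. Over all annotated genes, 12% of genes were met by H3K9me3 in this way, 21.4% by H3K9me1 and 11.5% by H3K9me2, against 44.4%, 33.3% and 11.1% of the Nkx genes. H3K9me3 without another mark was found at 3.65% of all genes and at 2.29% of protein-coding genes. Among protein-coding genes met by H3K9me3, 22.4% carried it alone, against 4 of 4 Nkx genes. This share differed between chromosomes, and the 4 genes lie on chromosomes 2, 5 and 19. There, 4.61%, 11.9% and 18.1% of protein-coding genes had H3K9me3 at a start site. In the same order, 2.82%, 3.73% and 5.01% had it alone, a larger part of those met than over all chromosomes. Nkx6-1 was named in the study as an H3K9me3 example from these same samples and is not independent evidence. Without it the count was 3 of 8 genes (37.5%).

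The cover of the windows met differed. H3K9me3 covered 100% of the window of Nkx3-2 and of Nkx6-1, 96.3% of that of Nkx2-3 and 52.8% of that of Nkx2-4. The count stayed at 4 with windows of 500 bp, with a minimum cover of 50% of the window and with the 5' end as the sole start. The count rose to 6 with windows of 5 kb either side, which took in Nkx2-5 and Nkx2-6. It also depended on region width, since with regions of at least 5 kb Nkx3-2 alone was left.

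The sequence just upstream of the 5' end is shown for the 4 genes with H3K9me3 and for Nkx6-2, which carried no mark. Each stretch holds the 250 bases before the annotated 5' end in GRCm38, 5′ to 3′ on the strand of the gene. CG dinucleotides, the sites of DNA methylation in mammals, are in capitals. The motif searched was CG, which reads alike on both strands.

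Nkx2-3, chr19:43612075-43612324, plus strand, 14 CG, all of it in the H3K9me3 region: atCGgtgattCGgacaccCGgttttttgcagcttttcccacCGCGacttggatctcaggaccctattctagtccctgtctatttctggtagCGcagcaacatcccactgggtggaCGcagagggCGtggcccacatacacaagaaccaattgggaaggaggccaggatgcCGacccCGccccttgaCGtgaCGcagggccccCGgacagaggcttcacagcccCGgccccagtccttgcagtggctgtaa
Nkx2-4, chr2:147085446-147085695, minus strand, 16 CG, with the last 55 bases before the gene in the H3K9me3 region: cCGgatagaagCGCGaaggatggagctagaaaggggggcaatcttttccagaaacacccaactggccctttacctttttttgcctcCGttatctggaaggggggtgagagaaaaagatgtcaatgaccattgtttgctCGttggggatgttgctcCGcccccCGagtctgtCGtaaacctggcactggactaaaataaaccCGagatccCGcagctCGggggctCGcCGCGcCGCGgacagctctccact
Nkx3-2, chr5:41764502-41764751, minus strand, 7 CG, all of it in the H3K9me3 region: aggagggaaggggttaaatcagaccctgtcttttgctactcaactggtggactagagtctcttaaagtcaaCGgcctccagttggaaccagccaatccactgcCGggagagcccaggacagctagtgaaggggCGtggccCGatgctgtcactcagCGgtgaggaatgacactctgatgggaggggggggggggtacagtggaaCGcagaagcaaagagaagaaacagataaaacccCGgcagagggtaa
Nkx6-1, chr5:101664997-101665246, minus strand, 7 CG, all of it in the H3K9me3 region: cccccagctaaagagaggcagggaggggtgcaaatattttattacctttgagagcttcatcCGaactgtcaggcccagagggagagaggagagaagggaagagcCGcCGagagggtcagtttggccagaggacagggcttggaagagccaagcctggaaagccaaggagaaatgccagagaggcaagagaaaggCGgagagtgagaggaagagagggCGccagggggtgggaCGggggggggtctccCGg
Nkx6-2, chr7:139582798-139583047, minus strand, 26 CG, in no region: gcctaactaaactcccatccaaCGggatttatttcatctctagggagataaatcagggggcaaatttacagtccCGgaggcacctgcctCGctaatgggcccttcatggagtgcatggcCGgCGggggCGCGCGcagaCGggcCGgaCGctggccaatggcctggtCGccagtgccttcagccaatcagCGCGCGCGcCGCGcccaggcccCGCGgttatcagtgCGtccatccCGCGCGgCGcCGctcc

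Among protein-coding genes, 92.4% have a CG in the same 250 bases, with a median of 8. Nkx6-2 had more than 90.1% of them. The number of CG in this short stretch was below the median at Nkx3-2 and Nkx6-1 and above it at Nkx2-3 and Nkx2-4. All 4 carried H3K9me3. The highest number of the 9 genes was at Nkx6-2, which carried no mark and lies on chromosome 7, where coverage was low.

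**Figure D1:**
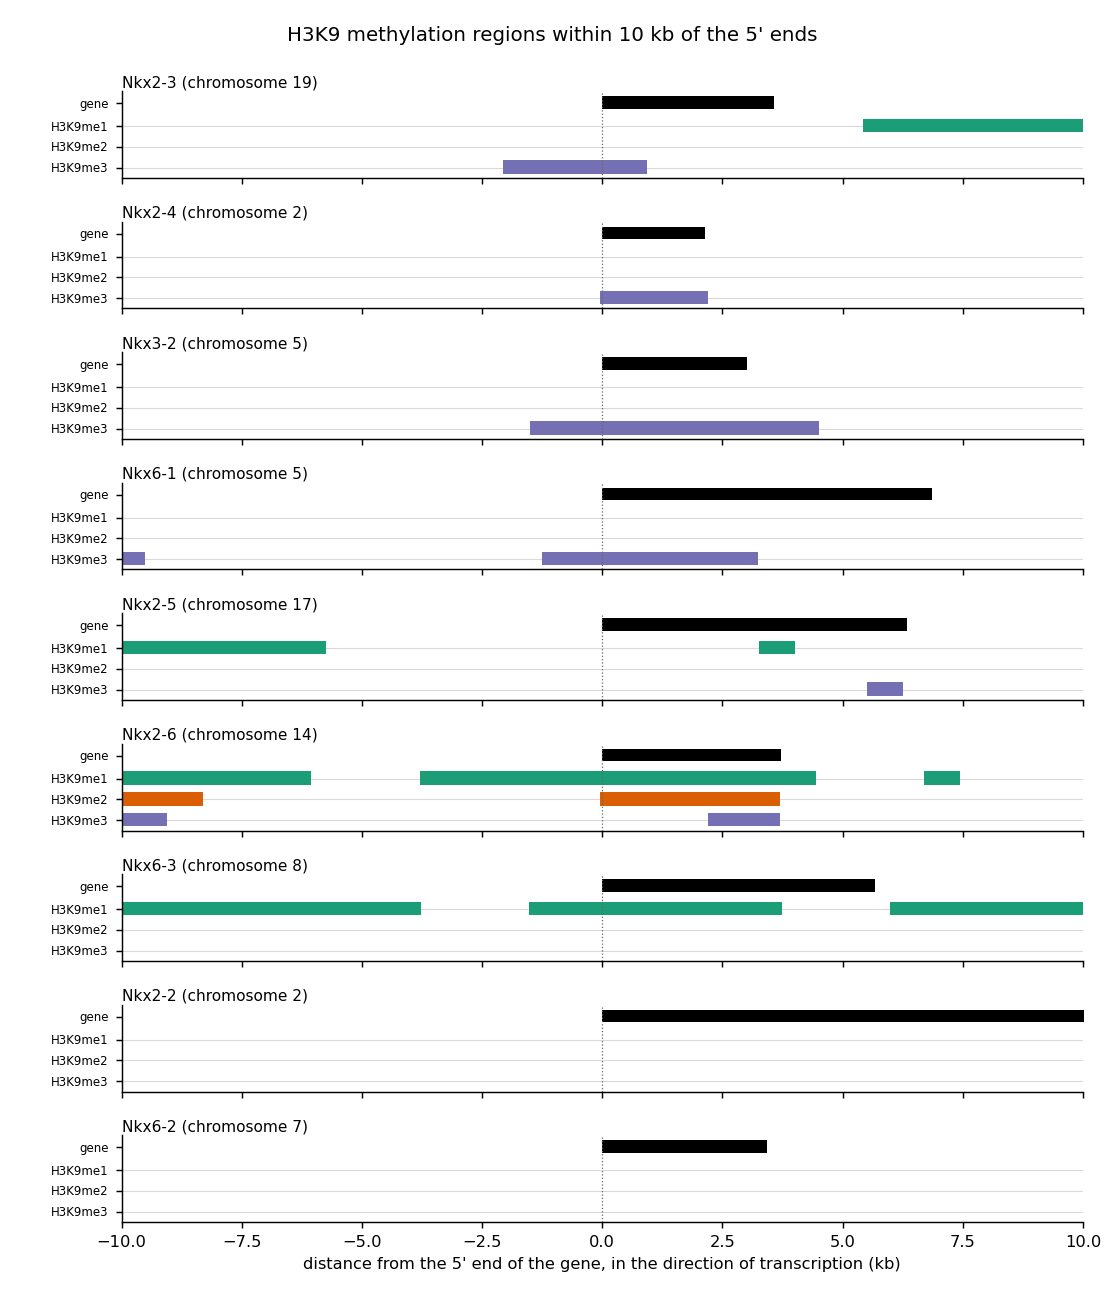
Regions of each mark within 10 kb of the 5' end of each Nkx gene. The x axis is the distance from the 5' end in kb, read in the direction of transcription, black bars are gene bodies and coloured bars are called regions. H3K9me3 bars cross the dotted line at the 5' end in the 4 uppermost genes. In Nkx2-5 and Nkx2-6 an H3K9me3 bar lies inside the gene, away from the 5' end. At Nkx2-6 a further H3K9me3 bar lies upstream of the gene, at the edge of the plot.

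Nkx6-1, a regulator of beta cells and of motor neuron progenitors, lies on chromosome 5 from 101658139 to 101664996 on the minus strand (6.86 kb). Its H3K9me3 region ran from 101661751 to 101666250 and measured 4.5 kb. It reached from 1254 bp upstream of the 5' end to 3245 bp inside the gene and covered 47.3% of the gene body. Within the gene it lay over 762 bp of 5' UTR, 846 bp of coding sequence and 1638 bp of intron, and it did not reach the 3' UTR. The nearest H3K9me2 region began 11.5 kb downstream of the 5' end, past the end of the gene, and the nearest H3K9me1 region lay 22.7 kb away.

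Nkx3-2, which acts in the axial skeleton, lies on the same chromosome from 41761483 to 41764501 on the minus strand. A single H3K9me3 region of 6 kb, from 41760001 to 41766000, covered the whole gene with 1.5 kb on each side. The next H3K9me3 regions were 170 kb away on the one side and 187 kb on the other. H3K9me2 was 158 kb from the start site and H3K9me1 27 kb.

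Nkx2-4, a close relative of the thyroid and forebrain regulator Nkx2-1, is a short gene of 2.13 kb on chromosome 2 (147083316 to 147085445, minus strand). Its H3K9me3 region, from 147083251 to 147085500, was 2.25 kb wide. It covered the gene body to 100% and reached 55 bp past its 5' end. The next H3K9me3 regions were 326 kb and 177 kb away, so this region stood by itself. Nothing else was called in the gene or its flanks by any mark. On chromosome 2, H3K9me3 covered 6.32%, H3K9me2 2.69% and H3K9me1 12.1% of the sequence. Of its 1843 protein-coding genes, 4.61% had H3K9me3 at a start site and 2.82% had it alone.

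Nkx2-3 lies on chromosome 19 from 43612325 to 43615892 on the plus strand. Its H3K9me3 region of 3 kb (43610251 to 43613250) reached from 2074 bp upstream to 925 bp into the gene. It covered 176 bp of 5' UTR, 349 bp of coding sequence and 401 bp of intron, or 26% of the gene body. The neighbourhood of the gene was rich in H3K9me1, which covered 64.4% of the flanks in 9 regions. The gene itself lay in a stretch of 19.5 kb free of H3K9me1, from 14.1 kb upstream to 5.42 kb downstream of the 5' end, and the H3K9me3 region lay inside that stretch.

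The next 3 genes carried H3K9me1 at a start site. Nkx2-6, a gene of the pharyngeal endoderm, lies on chromosome 14 from 69171802 to 69175518 on the plus strand. An H3K9me1 region of 8.25 kb covered the whole gene and the whole window. An H3K9me2 region of 3.75 kb began 51 bp upstream of the 5' end and covered 99.5% of the gene body. An H3K9me3 region of 1.5 kb (69174001 to 69175500) began 2199 bp inside the gene and covered its 3' part, with 620 bp of coding sequence and 249 bp of 3' UTR. Nkx2-6 was thus the only one of the 9 genes with all 3 marks in its body.

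Nkx2-5 lies on chromosome 17 from 26838664 to 26845009 on the minus strand and has 2 annotated start sites. H3K9me1 was called in a single bin of 0.75 kb (26841001 to 26841750) that held the start site at 26841565. The other start site, at 26845009, belongs to a transcript that the annotation gives as an inferred model, and no mark met its window. A single bin of H3K9me3 (26838751 to 26839500) lay at the other end of the gene, over 476 bp of coding sequence and 274 bp of 3' UTR, 2065 bp from the nearest start site. Both of these bins drop out with regions of at least 2 kb.

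Nkx6-3, which is expressed in the stomach, lies on chromosome 8 from 23153269 to 23158948 on the plus strand. H3K9me1 covered its whole window in a region of 5.25 kb and covered 65.7% of its body. H3K9me2 came no closer than 54 kb and H3K9me3 no closer than 57.8 kb. Of the 1040 protein-coding genes of chromosome 8, 67.3% had H3K9me1 at a start site.

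Nkx2-2 and Nkx6-2, both regulators in the ventral neural tube, had no region of any mark in the window or the body. They lie on chromosome 2 (147177546 to 147194243) and chromosome 7 (139579376 to 139582797), both on the minus strand. For Nkx2-2, with 4 annotated start sites, the closest region was an H3K9me2 region of 1.5 kb at a distance of 48.9 kb from a start site, and H3K9me3 was 68.3 kb away. Nkx2-2 and Nkx2-4 are neighbours on the chromosome, and the stretch of 177 kb without H3K9me3 that holds Nkx2-2 begins at the edge of the region over Nkx2-4. For Nkx6-2 the nearest H3K9me3 region was 432 kb away, and the nearest H3K9me1 and H3K9me2 regions were 33.3 Mb away. At 2.13% of the 2023 protein-coding genes of chromosome 7 H3K9me3 met a start site. For Nkx6-2, and for H3K9me2 and H3K9me3 at Nkx2-2, the lack of a mark and the low coverage of the chromosome cannot be told apart. H3K9me1 was not low on chromosome 2 as a whole, where it met a start site of 33.3% of protein-coding genes against 28.3% of all protein-coding genes. Nkx2-2 and Nkx2-4 lie, however, in a stretch of 1540 kb in which no H3K9me1 region was called. The nearest was 322 kb from a start site of Nkx2-2, so the lack of this mark is not particular to the gene.

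The 9 genes were then split by chromosome coverage. On the 9 chromosomes covered to at least 5% by every list lay 6 of the genes, and all 6 had a mark at a start site, with H3K9me3 in 3 and H3K9me1 in 3. Protein-coding genes of these chromosomes carried H3K9me3 in 20.1% of cases, H3K9me1 in 54.4% and H3K9me3 alone in 3.18%. A mark of some kind was thus common at start sites there, at 54.4% of protein-coding genes or more. Of the 3 genes on the other chromosomes, Nkx2-4 carried H3K9me3, where 2.46% of protein-coding genes did. On chromosome 2, which holds Nkx2-4, 4.61% did.

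Gene bodies were met by H3K9me3 in 6 of 9 genes, the 4 with a marked start site and also Nkx2-5 and Nkx2-6. Of all annotated gene bodies, 15.2% were met by H3K9me3, 26.7% by H3K9me1 and 14.6% by H3K9me2. Of protein-coding gene bodies, 16.3%, 39.3% and 16.5% were met in the same order. These shares are not adjusted for the uneven coverage of the chromosomes. H3K9me1 met the bodies of 3 Nkx genes and H3K9me2 that of 1. The genes are short, at 2.13 to 16.7 kb, and the longest of them, Nkx2-2, had no mark. Covered shares differed widely among the 6, from 11.8% in Nkx2-5 to 100% in Nkx2-4 and Nkx3-2. With a minimum cover of 50% of the body 2 genes were left for H3K9me3, and with regions of at least 2 kb 4 were left.

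**Figure D2:**
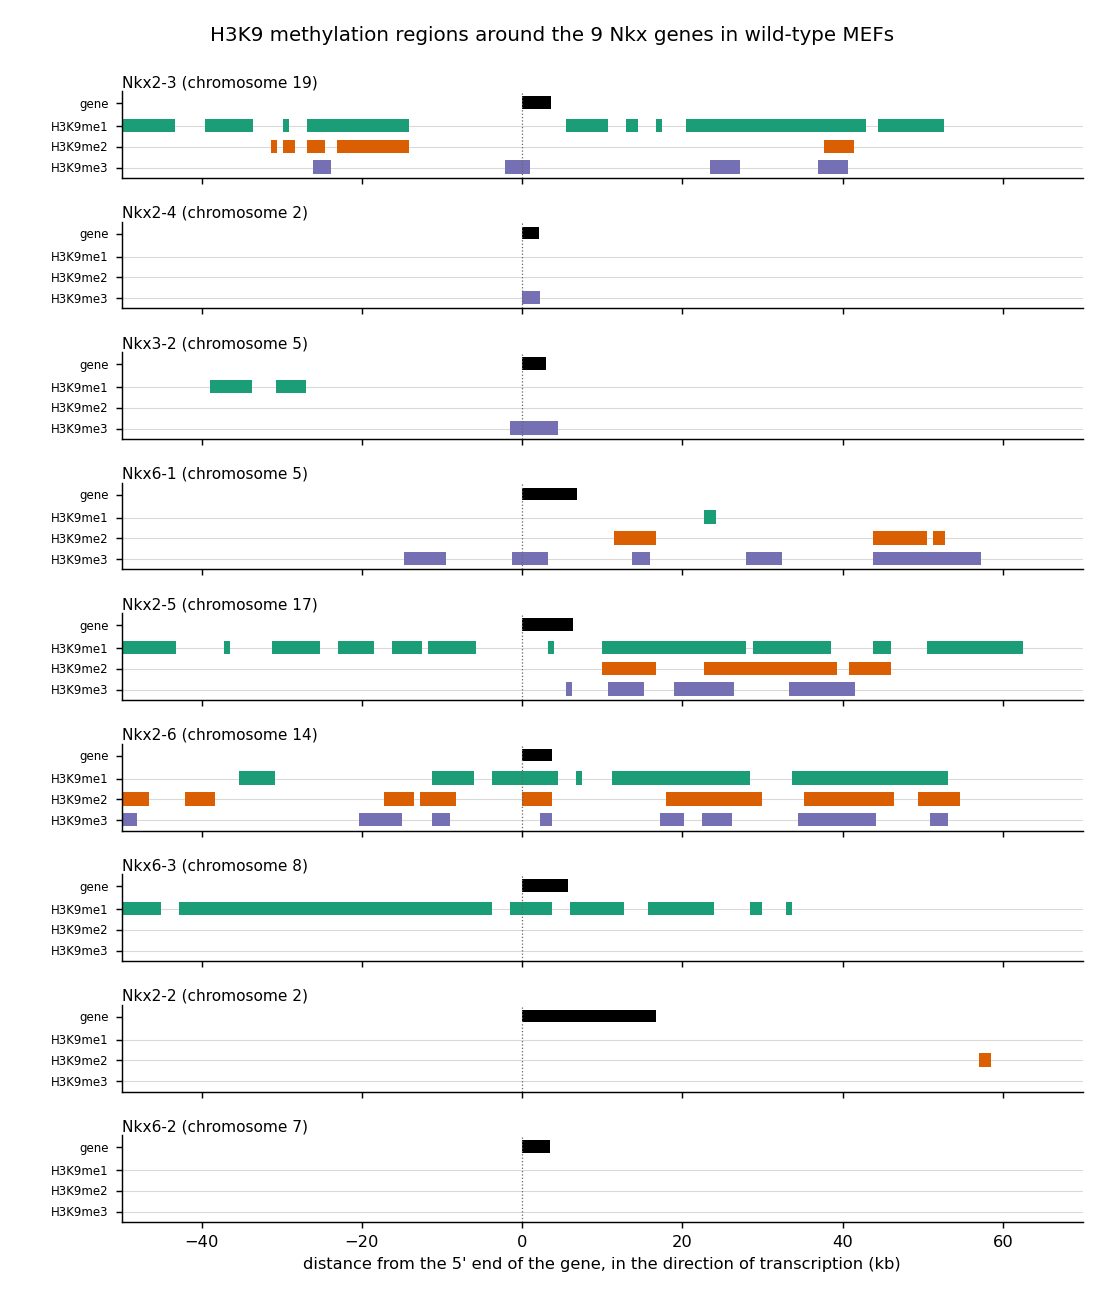
Regions of each mark from 50 kb upstream to 70 kb downstream of the 5' end of each Nkx gene. The x axis is the distance from the 5' end in kb in the direction of transcription, black bars are gene bodies and coloured bars are called regions. The H3K9me3 regions at Nkx2-4 and Nkx3-2 stand alone, while Nkx2-5 and Nkx2-6 lie among regions of all 3 marks.

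The 50 kb on each side of the gene were scored in the same way. H3K9me1 met the flanks of 6 genes, H3K9me2 of 5 and H3K9me3 of 6, where 41.5%, 31.9% and 36.3% of all annotated genes were met. Of protein-coding genes, 49.5%, 35.2% and 35.9% were met, again without adjustment for the coverage of the chromosomes. At Nkx2-4 and Nkx3-2 the only H3K9me3 in the flanks was the margins of the region over the gene. Nkx6-2 had no region of any mark in its flanks, and Nkx2-2 had the single H3K9me2 region of 1.5 kb. With the flanks of the 9 genes pooled, H3K9me1 took up 28.1% of the sequence, H3K9me2 11.5% and H3K9me3 9.97%. The medians over the 9 genes were lower, at 9%, 1.5% and 2.98%, and H3K9me1 ranged from 0% to 64.4%. The pooled shares have no pooled share over other genes beside them, so they are not called high or low.

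Flank coverage differed between the genes with H3K9me3 at the start. Around Nkx6-1, H3K9me3 covered 26.4% of the flanks in 5 regions (1 of them reaching over the gene), which was more than for 89.4% of the protein-coding genes of chromosome 5. H3K9me1 covered 1.5% there, below the median of 39.4% for that chromosome. The same mark covered 9% of the flanks of Nkx3-2, on the same chromosome. Around Nkx2-4 the flanks held 0.12% of H3K9me3, all of it the margins of the region over the gene. H3K9me1 was thus below the chromosome median around Nkx2-4, Nkx3-2 and Nkx6-1 and above it around Nkx2-3 (64.4% against 47.2%).

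Around Nkx2-6, H3K9me1 took up 51.8% of the flanks, H3K9me2 43% and H3K9me3 28.2%, against medians of 18%, 3.75% and 2.39% for protein-coding genes of chromosome 14. Around Nkx2-5 the marks were uneven on the 2 sides. H3K9me2 covered 57% of the 50 kb downstream and 0% of those upstream, and H3K9me3 covered 40.5% and 0%. Around Nkx6-3, H3K9me1 covered 91% of the upstream and 34.5% of the downstream flank, and the other marks were not called.

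**Figure D3:**
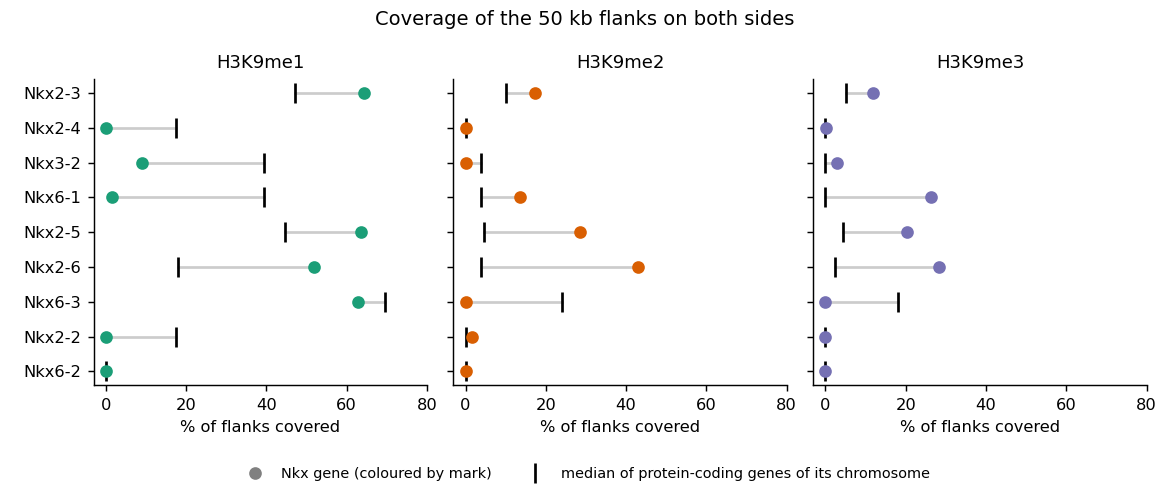
Share of the 50 kb flanks on both sides of each Nkx gene covered by each mark, in percent (circles), with the median over protein-coding genes of the same chromosome (vertical bars). H3K9me1 lies under the chromosome median at Nkx2-2, Nkx2-4, Nkx3-2, Nkx6-1 and Nkx6-3, and all 3 marks lie above it at Nkx2-3, Nkx2-5 and Nkx2-6.

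The base composition of the start sites was compared, a feature that the choice of the genes did not use. CpG islands, stretches rich in the CG dinucleotide (CpG), are common at promoters of developmental regulators. Within 1 kb either side of the 5' end the Nkx genes held a median of 112 CpG, against 61 for protein-coding genes, with a GC content of 56.4% against 51.2%. Nkx2-4 had the most with 178 CpG, followed by Nkx6-1 with 171, Nkx6-2 with 163, Nkx2-2 with 133 and Nkx3-2 with 112. Protein-coding genes were divided into 4 groups of near equal size by CpG count, and these 5 genes fell in the highest group, which starts at 98 CpG. The 3 genes among them with a mark carried H3K9me3 alone, and the other 2 are the genes on chromosomes 2 and 7 with no mark. Nkx2-3 had 80 CpG, Nkx2-5 had 70, Nkx2-6 had 50 and Nkx6-3 had 44. The value for Nkx2-5 is centred on its 5' end at 26845009, not on the start site at 26841565 that carried H3K9me1. The 2 genes with H3K9me1 at the 5' end itself were the lowest.

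Over protein-coding genes H3K9me3 was no more frequent at CpG-rich start sites. At the 5' end it met 13.7% of genes in the group lowest in CpG, 9.32% and 4.04% in the middle groups and 4.81% in the highest group. H3K9me3 alone was at 3.08%, 1.81%, 1.4% and 2.63% in the same order. H3K9me2 was at 15.9% of genes in the lowest and at 2.34% in the highest group.

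**Figure D4:**
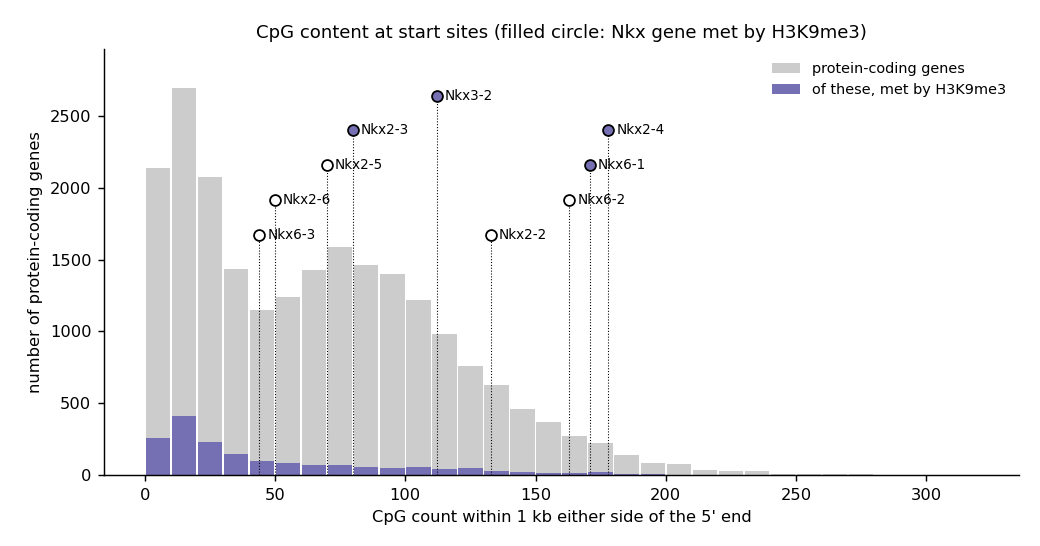
Number of protein-coding genes by CpG count within 1 kb either side of the 5' end (grey bars, 10 CpG wide), and those met there by H3K9me3 (violet bars). Circles mark the Nkx genes at their CpG count (their height has no meaning), filled where H3K9me3 met a start site. Filled circles lie between 80 and 178 CpG, and the genes at 133 and 163 CpG are open.

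The H3K9me3 regions over Nkx genes were among the most CpG-dense of the list. The median H3K9me3 region held 0.867 CpG per 100 bp and the upper 1% began at 4 CpG per 100 bp. All 6 regions in Nkx gene bodies were above this, with 4.2 (Nkx2-3), 4.43 (Nkx3-2), 5.13 (Nkx2-6), 6.33 (Nkx6-1), 10 (Nkx2-5) and 11.3 (Nkx2-4) CpG per 100 bp. Of 27108 regions, 1 had a higher density than that of Nkx2-4 and 37 had a higher density than that of Nkx6-1. Soft-masked repeats made up 3.2% to 12.1% of these 6 regions, while the median H3K9me3 region held 32.3%. A region that lies over a CpG-rich gene shares its composition, so these values describe where the regions lie and are not a separate finding about the genes. The 6 regions measured 0.75 to 6 kb, and the median of the list was 5.25 kb.

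Lists of related genes were scored next. These were other NKX genes and 4 lists of genes that act with Nkx factors or in the same organs, and they were chosen with earlier results of these data known. Of the other NKX genes described here, Nkx1-1 carried H3K9me3 alone over 100% of the window and Nkx2-1, a regulator of the thyroid, lung and forebrain, carried it alone over 23.5%. Nkx1-2 and Nkx2-9 had no mark.

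Of 17 pancreas genes H3K9me3 met 5 (29.4%). Ptf1a, which specifies the pancreas, the endocrine factor Insm1 and the insulin gene Ins1 carried it alone, and Neurog3 and Rfx6, which act in endocrine progenitors, carried all 3 marks. The latter 2 lie on chromosome 10, where H3K9me3 met a start site of 54.5% of protein-coding genes. That share was 18.1% on chromosome 19, which holds Ins1, and 4.61% on chromosome 2, which holds Ptf1a and Insm1. Onecut1 carried H3K9me1 and H3K9me2. In the ventral neural tube list H3K9me3 met 2 of 17 genes (11.8%), with Sim1 marked by it alone and Dbx2 by all 3 marks, and Gli1, a target of Hedgehog signalling, had H3K9me1 and H3K9me2. In the heart list it met 1 of 13, Hand2, together with H3K9me2, and Myocd carried H3K9me1 and H3K9me2. In the skeleton and spleen list it met Pax1 alone of 11 genes, without another mark.

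The 4 lists held 58 genes, 9 of them with H3K9me3 (15.5%), 5 with H3K9me3 alone and 41 with no mark. Among protein-coding genes 10.2% were met by H3K9me3, 2.29% by H3K9me3 alone and 66.9% by no mark, and the shares for the neural tube, heart and skeleton lists (11.8%, 7.69% and 9.09%) lay near the former. On the 9 chromosomes covered to at least 5% by every list, H3K9me3 met 6 of 28 of these genes, 2 of them alone, where 20.1% of protein-coding genes were met and 3.18% alone. On the other chromosomes it met 3 of 30 (Ptf1a, Insm1 and Pax1, all on chromosome 2), each alone, where 2.46% of protein-coding genes were met and 1.59% alone. On chromosome 2 itself these shares were higher, at 4.61% and 2.82%.

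**Figure D5:**
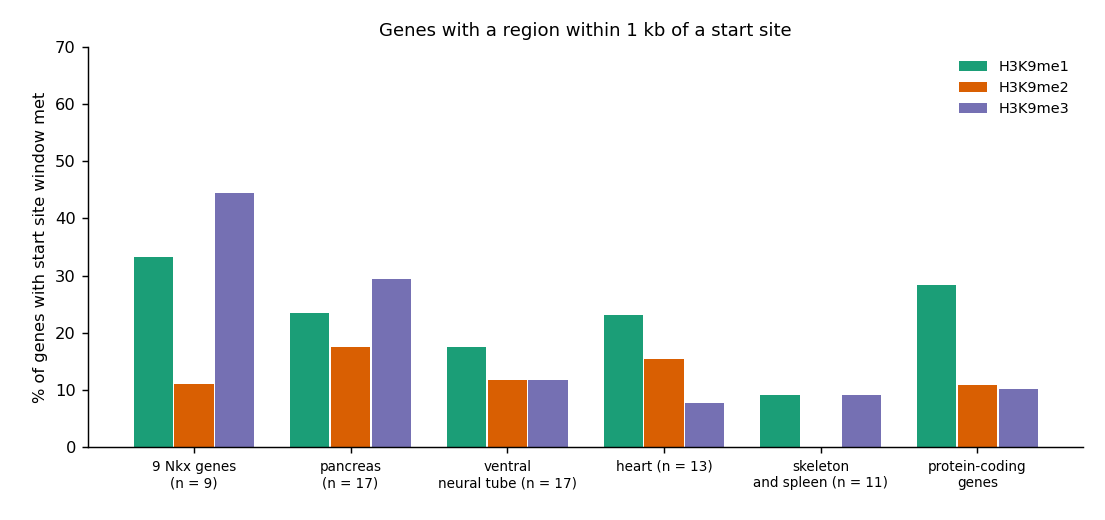
Share of genes, in percent, whose window of 1 kb either side of a start site was met by each mark, for the 9 Nkx genes, the 4 lists of partner genes (with their n) and all protein-coding genes. H3K9me3 reaches 44.4% in the 9 Nkx genes and 29.4% in the 17 pancreas genes, against 10.2% of protein-coding genes. The shares are not adjusted for the uneven coverage of the chromosomes that hold the genes.

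The likeness of the marks within 10 kb of the 5' end was measured by the Jaccard index, the number of 250 bp steps marked in both genes divided by the number marked in either, over the 3 lists together. Over the protein-coding genes, those most like Nkx6-1 were Sstr1, a somatostatin receptor gene on chromosome 12 (index 0.9), and Rasgrf1 on chromosome 9 and Tril on chromosome 6 (index 0.81 each). In all of them H3K9me3 was the only mark within these 10 kb. Among the Nkx genes the closest pair was Nkx3-2 and Nkx6-1 (0.692), followed by Nkx2-4 and Nkx6-1 (0.45), by Nkx2-6 and Nkx6-3 (0.377), which shared no H3K9me3 step, and by Nkx2-4 and Nkx3-2 (0.375). These values rest on 1 map per mark and carry no error.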

How the data were processed

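Input DNA and chromatin immunoprecipitated for H3K9me1, H3K9me2 and H3K9me3 from wild-type MEFs were sequenced in 2 replicates each. The authors aligned the reads to mm10 (GRCm38) with BWA 0.7.1, as the submitters' processing notes also state, and called regions with histoneHMM, whose version and threshold are not given in the sources used here. They deposited 1 region list per mark, and how replicates and input entered the call is not stated. Positions were taken to count from 1 with the end included, which placed every region on a grid of 750 bp (0 positions off the grid, 0 regions past a chromosome end).

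Genes, start sites, exons and UTRs came from GENCODE M21 (GRCm38), and sequence from GRCm38.p6 of RefSeq. Window, body and 50 kb flanks were scored by overlap of at least 1 bp, and covered shares by covered bp. CpG counts used the window around the 5' end only. Overlap arithmetic was tested on simulated regions. All 9 genes and all list genes were matched by symbol.

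The members and the gene lists were chosen with earlier results of these data known. Genes named are the 9 Nkx genes, protein-coding genes in their flanks, list genes with H3K9me2 or H3K9me3 at a start site (at most 10 per list) and the 3 genes most like Nkx6-1. 1 gene that the rule names is not reported here. Nkx1-2 and Nkx2-9 fall outside this rule and were named after their values were seen. Alternatives covered region width, joining of regions, 0-based starts, window and flank size, the 5' end only and a minimum cover of 50%. Python 3.11.15, NumPy 2.4.6 and SciPy 1.17.1 were used, and figures were drawn with Matplotlib 3.10.9.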

Additional observations from a re-analysis of the deposited data

How the results depend on the processing

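No paired analysis was possible because each mark has a single list without replicate values, so neither leaving out a replicate nor a replicate block could be run. With regions of at least 5 kb, the Nkx genes with H3K9me3 fell to 1 at start sites and 1 in gene bodies, those with H3K9me2 to 0 in both, and flank coverage to 25.1% (H3K9me1), 8.94% (H3K9me2) and 6% (H3K9me3), since fewer regions were kept. A minimum cover of 50% left 2 gene bodies with H3K9me3. Joining regions up to 5 kb apart raised H3K9me1 flank coverage to 34.4%. Flanks of 100 kb gave 25% for H3K9me1 and 7.61% for H3K9me3. The other 67 values stayed within 1.5 times for counts and within the 95% Wilson limits over 750 bp bins for pooled shares. Changes of the H3K9me3 counts from 4 to 6 (start sites, windows of 5 kb) and from 6 to 4 (gene bodies, regions of at least 2 kb) are among these. Neighbouring bins often belong to the same region and are not independent, so the limits serve as a yardstick and measure no spread between samples. Over protein-coding genes only, start sites were met in 28.3% (H3K9me1), 10.8% (H3K9me2) and 10.2% (H3K9me3) of genes. Without scores per region, weak and strong regions cannot be told apart.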

Other observations

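Most of the protein-coding neighbours described here, all within 50 kb of an Nkx gene, lacked H3K9me2 and H3K9me3 at their start sites. That is the common state, since 10.8% of all protein-coding genes were met by H3K9me2 and 10.2% by H3K9me3. On chromosome 7, which holds Inpp5a and Cfap46, these shares were 0.494% and 2.13%. On chromosome 2, which holds Xrn2, they were 5.05% and 4.61%. Xrn2, an RNA exonuclease gene 5.32 kb from Nkx2-4, had no mark at its start sites or in its body, and Nkx2-4 itself was covered by H3K9me3 in full. Bod1l, 23 kb from Nkx3-2, had no mark at a start site and H3K9me1 over 15.9% of its body. Inpp5a and Cfap46, next to Nkx6-2, had no mark. Slc25a28 near Nkx2-3 and Bnip1 near Nkx2-5 carried H3K9me1 alone at a start site. Next to Nkx6-3, the erythrocyte ankyrin gene Ank1 carried H3K9me1 and H3K9me3 at start sites, with H3K9me1 over 79% of its body, while Gpat4 had no mark at a start site.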
